A study of Mus musculus with 15 samples.

Results

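The comparison described here sets the 3 Rag_SPIC_DOX_shBCLAF1 libraries against the 3 Rag_SPIC_DOX libraries, 6 of the 15 RNA-seq libraries of the study. Libraries were chosen by their labels alone, and genes were those listed in any of the 4 deposited tables, 11551 in all. Both groups are Rag -/- Abelson pre-B cells of passage 10 to 15 that carry a tetracycline-inducible SPIC construct and had received doxycycline. Rag_SPIC_DOX_shBCLAF1 carries in addition a short hairpin RNA directed at BCLAF1, whereas the shRNA entry of Rag_SPIC_DOX is "none". Cells with a hairpin are therefore set against cells with no hairpin at all, and effects of the target and of carrying any hairpin vector cannot be told apart. Rag_SPIC_noDOX, the same line with neither doxycycline nor hairpin, is given as a further baseline, and Art_shBCLAF1 and Art, Artemis-deficient (Art -/-) Abelson cells with and without the hairpin, serve for 1 test of a difference between lines. Every culture of the study, controls included, had been in imatinib for 48 h. Each group holds 3 libraries. The sources used here do not say whether these are separate cultures or how many clones a line comprises. The p-values therefore reflect no more than the spread among the libraries.

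Abelson cells are early B cells that grow because they carry v-Abl, an overactive kinase. Imatinib blocks that kinase, and the cells then leave the cycle and switch on the genes of antibody light-chain recombination. PU.1 (gene Spi1), SPI-B (Spib) and SPIC (Spic) are ETS-family transcription factors that bind the same purine-rich DNA element, and PU.1 and SPI-B switch on genes of B-cell receptor signalling such as Syk and Blnk. BCLAF1 is a nuclear protein linked to transcription, RNA processing and the DNA damage response. According to its title, the study is about a complex of SPIC with BCLAF1 that lowers PU.1 activity once RAG has broken DNA. The comparison asks what changes in cells with induced SPIC when BCLAF1 is the target of a hairpin.

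Sequencing depth, as effective library size in megareads (M reads), was 22.7, 25.9 and 27.1 in Rag_SPIC_DOX_shBCLAF1 and 23.2, 22.1 and 21.6 in Rag_SPIC_DOX. Levels are given as log2 CPM, the logarithm of a gene's reads scaled to library size, and are compared between libraries, not between genes. The Rag_SPIC_DOX_shBCLAF1 libraries lay close together, with root-mean-square differences of 0.24 to 0.26 log2 units between pairs, against 0.41 to 0.83 between pairs of Rag_SPIC_DOX libraries. The standard deviation was larger in Rag_SPIC_DOX than in Rag_SPIC_DOX_shBCLAF1 for 83.8% of genes. On a line that runs from the Rag_SPIC_noDOX mean (0) to the Rag_SPIC_DOX_shBCLAF1 mean (1) over all genes, Rag_SPIC_DOX replicates 1, 2 and 3 lay at 0.44, 0.07 and 0.28. Replicate 2 was thus nearest the uninduced cells and replicate 1 nearest the hairpin cells. The samples hold B-lineage RNA. All 12 B-lineage markers were measured, and their sum was 7874 to 8186 CPM in Rag_SPIC_DOX_shBCLAF1 and 7944 to 11181 CPM in Rag_SPIC_DOX. Cd79a, a signalling chain of the B-cell receptor, was at 10.03, 9.97 and 10.01 log2 CPM in Rag_SPIC_DOX_shBCLAF1 and 9.58, 9.95 and 9.79 in Rag_SPIC_DOX. Over the 12 markers the median log2 fold change was -0.13.

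Bclaf1 (ENSMUSG00000037608), the target of the hairpin, was higher in the libraries that carry the hairpin label. It stood at 7.99, 8.05 and 8.10 log2 CPM in Rag_SPIC_DOX_shBCLAF1, at 7.76, 7.69 and 7.73 in Rag_SPIC_DOX and at 7.63, 7.70 and 7.77 in Rag_SPIC_noDOX. The values of the hairpin libraries lay above all others. The log2 fold change was 0.32 (SE 0.06, n = 3 per group, limma adjusted p = 0.0054), a 1.25-fold rise, and the call was lost when all 15 libraries shared 1 estimate of the spread (adjusted p = 0.366). A lower mRNA level, which a knockdown would give, was not seen in any of these libraries. The groups below are therefore those of the label, and protein was not analysed here.

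Spic (ENSMUSG00000004359), the gene of the inducible construct, had 4102, 4484 and 4691 reads in Rag_SPIC_DOX_shBCLAF1, against 305, 531 and 428 reads in Rag_SPIC_DOX and 32, 20 and 47 reads in Rag_SPIC_noDOX. In log2 CPM these were 7.50, 7.43 and 7.44, against 3.72, 4.59 and 4.31 and 0.87, 0.18 and 1.41. Both groups had doxycycline, yet Spic rose 9.51-fold with the hairpin label (log2 fold change 3.25, SE 0.21, adjusted p = 0.00022). The reads do not show whether they came from the construct or from the cell's own gene. Whatever the hairpin label changed, it was thus measured in cells with more Spic mRNA, and the part of Spic in the other changes was not tested.

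Bclaf1 and Spic belong to a set of 10 genes, called label genes here, that was chosen for this report. Not all of them are named in the study's labels or title. Among the others, the ETS partners and the recombination genes moved in different directions. Spib (ENSMUSG00000008193) was at 8.07, 7.96 and 7.96 log2 CPM in Rag_SPIC_DOX_shBCLAF1, against 5.54, 6.0 and 5.84 in Rag_SPIC_DOX and 7.21, 7.07 and 7.12 in Rag_SPIC_noDOX. The hairpin-labelled libraries lay above both other groups (log2 fold change 2.20, SE 0.12, adjusted p = 0.00015). Spi1 (ENSMUSG00000002111), which encodes PU.1, was at 7.23, 7.20 and 7.20, against 7.01, 7.04 and 7.04, a change of 0.18 (SE 0.05, adjusted p = 0.021) that did not pass after median centring of each library (0.08, adjusted p = 0.401), with all 15 libraries in 1 fit (0.382), or without Rag_SPIC_DOX replicate 3 or any 1 hairpin-labelled library (adjusted p between 0.0611 and 0.0832).

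Rag1 (ENSMUSG00000061311), a subunit of the recombinase, was at 9.0, 8.94 and 8.94 log2 CPM in Rag_SPIC_DOX_shBCLAF1 and 10.13, 10.84 and 10.56 in Rag_SPIC_DOX, and fell by 1.55 (SE 0.17, adjusted p = 0.00101). Its partner Rag2 was at 5.09, 5.24 and 5.26, against 6.14, 6.67 and 6.58, and fell by 1.26 (SE 0.14, adjusted p = 0.00111). Dclre1c, the Artemis gene, rose by 0.45 (SE 0.10, adjusted p = 0.012, and 0.0546 without Rag_SPIC_DOX_shBCLAF1 replicate 3). With all 15 libraries in 1 fit Dclre1c did not pass (adjusted p = 0.433). For all of these the groups did not overlap, as for 66.1% of all genes. Rag1 mRNA in a Rag -/- line does not show whether a functional protein can be made.

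Syk, the kinase that relays the pre-B-cell receptor signal, was at 9.09, 8.98 and 8.94 log2 CPM in Rag_SPIC_DOX_shBCLAF1, against 9.34, 9.94 and 9.71 in Rag_SPIC_DOX, and fell by 0.66 (SE 0.15, adjusted p = 0.0119). Without Rag_SPIC_DOX_shBCLAF1 replicate 3 the adjusted p for Syk was 0.0501. Blnk, the adaptor that Syk phosphorylates, was at 9.56, 9.45 and 9.51, against 9.44, 9.93 and 9.77, with overlapping groups and a change of -0.21 (SE 0.13, adjusted p = 0.208). The uninduced cells were at a mean of 9.68 for Syk and 9.95 for Blnk, above the hairpin-labelled libraries for both of these PU.1 targets.

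Myc (ENSMUSG00000022346), which encodes a transcription factor of cell growth, showed the spread of the Rag_SPIC_DOX libraries most plainly among the label genes. It was at 9.13, 9.20 and 9.29 log2 CPM in Rag_SPIC_DOX_shBCLAF1, against 8.06, 3.76 and 6.83 in Rag_SPIC_DOX and 5.77, 5.41 and 5.60 in Rag_SPIC_noDOX. The hairpin-labelled libraries were above all others, while Rag_SPIC_DOX replicate 2 was below the uninduced cells. The log2 fold change was 3.0 (SE 1.0, adjusted p = 0.042). Without Rag_SPIC_DOX replicate 2 it was 1.77 (adjusted p = 0.0033), and without Rag_SPIC_DOX replicate 1 it was 3.92 (adjusted p = 0.0059). Without Rag_SPIC_DOX replicate 3 or any 1 of the hairpin-labelled libraries the call was lost (adjusted p between 0.0826 and 0.108), as it was with a robust prior (0.0565) and with voom weights (0.0518).

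**Figure D1:**
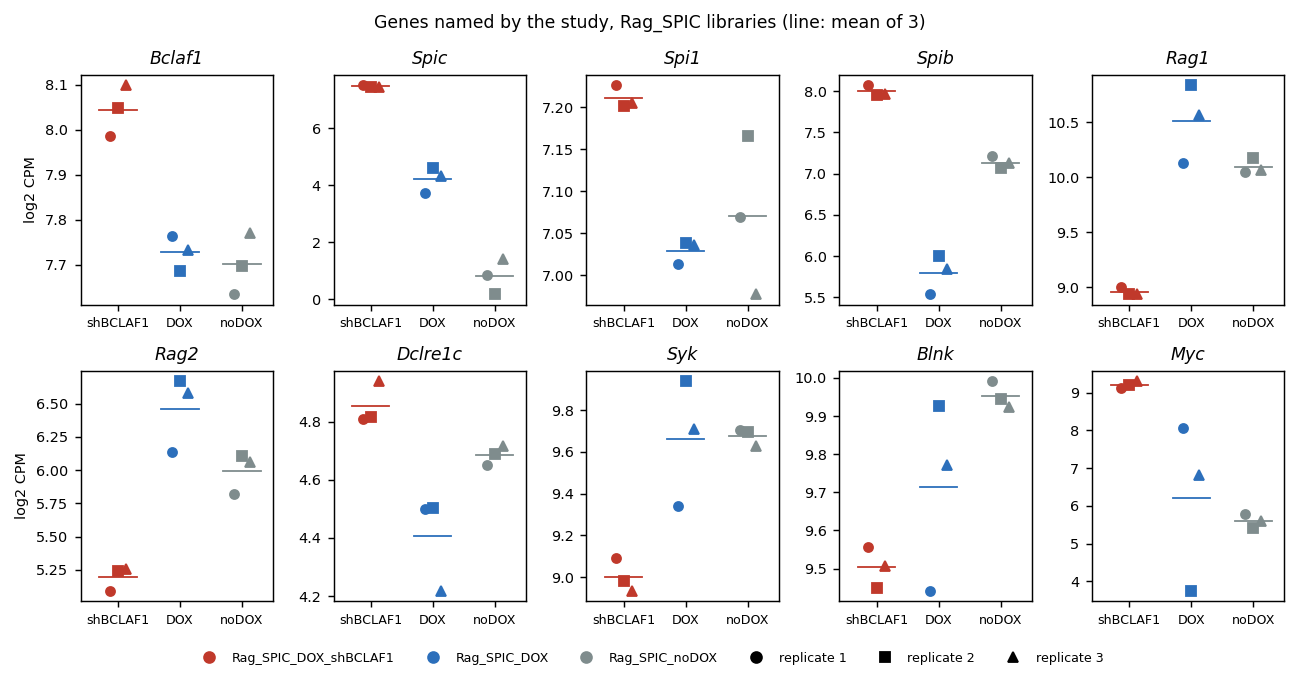
Log2 CPM (vertical axes, each with its own range) of the 10 label genes in Rag_SPIC_DOX_shBCLAF1, Rag_SPIC_DOX and Rag_SPIC_noDOX libraries. The set was chosen for this report, and the study's labels and title do not name all of them. Points are single libraries, their shape gives the replicate number and lines are means of 3. Spic is near 7.5 in every hairpin-labelled library, and Myc ranges over 3.76 to 8.06 in Rag_SPIC_DOX alone.

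Across all genes the comparison was broad. In limma, 6186 of 11551 genes passed an adjusted p of 0.05 (53.6%), of which 3290 were higher (28.5%) and 2896 lower (25.1%) in Rag_SPIC_DOX_shBCLAF1. The tables list only genes that passed at least 1 of the authors' own comparisons, so these shares hold within that set. With each library centred on its median, 2629 were higher and 3209 lower. Of the genes that passed, those whose group means differed by at least 1 log2 unit were 918 higher (7.95% of all genes) and 736 lower (6.37%). Every hairpin-labelled library lay above every Rag_SPIC_DOX library for 35.5% of genes and below for 30.6%, 66.1% together. Without any 1 hairpin-labelled library 3945 to 4219 genes passed, and without Rag_SPIC_DOX replicate 1, 7576 did. With so large a background, a gene list with about 28.5% of its members higher and 25.1% lower is no different from the table as a whole.

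Of the genes with the widest gap between the groups, among called genes of above-median level, 11 higher and 12 lower are described. All 23 kept their call in each of the 6 fits with 1 library left out. Having been chosen for wide gaps in these same libraries, they could hardly lose it, so this is no further support. After Spic the widest gap belonged to Blk (ENSMUSG00000014453), a Src-family kinase of the B-cell receptor. Blk was at 7.71, 7.66 and 7.62 log2 CPM in Rag_SPIC_DOX_shBCLAF1, against 4.79, 5.14 and 5.02 in Rag_SPIC_DOX and 5.90, 5.76 and 5.67 in Rag_SPIC_noDOX. It rose 6.42-fold (log2 fold change 2.68, SE 0.10, adjusted p = 6.17e-05) and lay above the uninduced cells too.

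Enpep, the aminopeptidase known as the BP-1 antigen of mouse pre-B cells, was at 7.95, 8.11 and 8.11 log2 CPM in Rag_SPIC_DOX_shBCLAF1, against 5.44, 5.61 and 5.39 in Rag_SPIC_DOX (log2 fold change 2.58, SE 0.08, adjusted p = 4.73e-05). Slc1a5, a glutamine transporter, was at 9.52, 9.52 and 9.54, against 7.87, 7.63 and 7.61 (1.83, SE 0.08). By the rule that chose them, both genes were higher in every hairpin-labelled library than in any Rag_SPIC_DOX library.

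The genes of this set differed in how their Rag_SPIC_DOX values lay. Spib, Blk, Enpep, Ltbp4 and Tgfb3 were lower in every Rag_SPIC_DOX library than in any uninduced library and highest with the hairpin label. Ltbp4, a binding protein of latent TGF-beta, was at 6.60, 6.74 and 6.72 log2 CPM in Rag_SPIC_DOX_shBCLAF1 and 4.85, 4.70 and 4.78 in Rag_SPIC_DOX (1.91, SE 0.07), and Tgfb3, a TGF-beta ligand, at 8.70, 8.64 and 8.66 and 7.06, 6.83 and 6.96 (1.72, SE 0.07). Tubb3, Nefh, Treml2 and Garem1 instead varied widely within Rag_SPIC_DOX, with replicate 1 the highest and replicate 2 the lowest. Nefh, a neurofilament subunit, was at 7.27, 7.39 and 7.38, against 5.33, 1.88 and 4.15 (3.56, SE 0.79, adjusted p = 0.0106), and Tubb3, a tubulin best known from neurons, at 7.49, 7.45 and 7.49, against 5.48, 3.52 and 4.77 (2.89, SE 0.45).

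Of the 12 genes with the widest gap downward, Dtx4, an E3 ubiquitin ligase of the Deltex family that acts on Notch, came first. Dtx4 was at 5.17, 5.19 and 5.17 log2 CPM in Rag_SPIC_DOX_shBCLAF1, against 7.62, 8.28 and 8.0 in Rag_SPIC_DOX and 8.10, 8.12 and 8.06 in Rag_SPIC_noDOX, a 6.92-fold fall (log2 fold change -2.79, SE 0.16, adjusted p = 0.00016). Itgam, the alpha chain of the myeloid integrin Mac-1, was at 5.16, 5.06 and 5.03, against 7.19, 7.92 and 7.65 (-2.50, SE 0.18). Itgb3, the integrin beta chain of the vitronectin receptor, was at 4.17, 3.88 and 3.93, against 6.15, 6.84 and 6.52 (-2.51, SE 0.18). Ltb, the lymphotoxin subunit that anchors the ligand to the membrane, was at 4.24, 4.13 and 4.17, against 6.78, 5.92 and 6.40 (-2.19, SE 0.20).

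The other 8 were Ankrd33b, Plscr4, Ralgps2, Zfp704, Cdc42bpb, Adamts7, Phka1 and Tmtc1. Over the 12 genes the falls ranged from 3.73-fold to 6.92-fold, with adjusted p between 0.00016 and 0.00077. In 11 of them Rag_SPIC_DOX replicate 1 was the lowest of its group, Ltb being the exception.

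**Figure D2:**
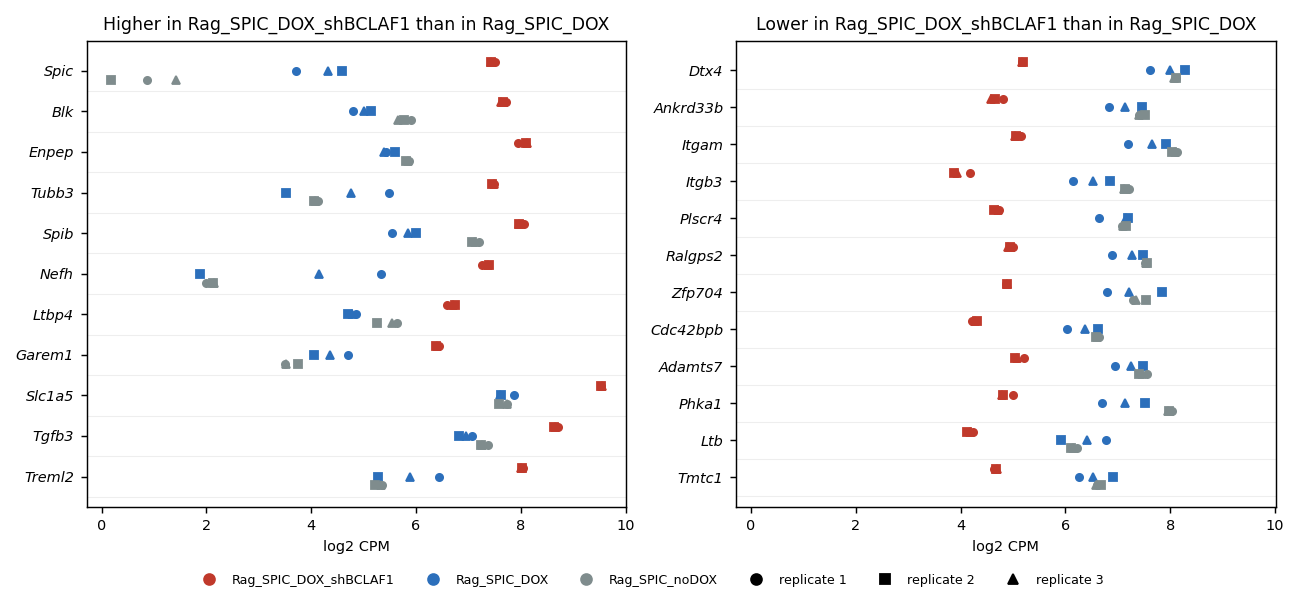
Log2 CPM (horizontal axes) of 11 higher and 12 lower genes with the widest gaps between Rag_SPIC_DOX_shBCLAF1 and Rag_SPIC_DOX, widest at the top, with Rag_SPIC_noDOX for reference. Each point is 1 library. The hairpin-labelled libraries form tight clusters, from 9.52 to 9.54 for Slc1a5, while Rag_SPIC_DOX values spread.

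Ribosome biogenesis was the list with the largest share of higher genes. All 34 measured genes, which make and process ribosomal RNA, were higher in Rag_SPIC_DOX_shBCLAF1, where 28.5% of all genes were. Their log2 fold changes ran from 0.59 to 2.31 with a median of 1.42, against 0.05 over all genes. In no member did the groups overlap, while 35.5% of all genes were higher without overlap. Gnl3, the nucleolar GTPase nucleostemin, was at 7.41, 7.48 and 7.49 log2 CPM in Rag_SPIC_DOX_shBCLAF1, against 6.01, 4.21 and 5.23 in Rag_SPIC_DOX (2.31, SE 0.41, adjusted p = 0.0047). Nop56, a core protein of the particles that methylate ribosomal RNA, was at 8.23, 8.30 and 8.29, against 6.76, 5.53 and 6.15 (2.12, SE 0.28), and Polr1b, a large subunit of RNA polymerase I, at 6.94, 7.0 and 6.99, against 5.84, 4.30 and 5.14 (1.88, SE 0.35). Others among the largest rises were Dkc1 (2.05), Rrp1b (2.05), Rrs1 (2.03), Rrp12 (1.96) and Rrp9 (1.80), all factors of ribosomal RNA modification or processing. With 1 library left out, 24 to 34 of the 34 passed, all of them higher.

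In Rag_SPIC_DOX all 34 members had the same order, replicate 1 above replicate 3 above replicate 2, an order that 33.5% of all genes had. Measured from the Rag_SPIC_noDOX mean, the median of the list stood at 2.0, 2.07 and 2.05 log2 units in Rag_SPIC_DOX_shBCLAF1 and at 1.23, 0.00 and 0.61 in Rag_SPIC_DOX. Rag_SPIC_DOX replicate 2 was thus at the uninduced level, and the hairpin-labelled libraries were above every other Rag library.

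MYC with its partner MAX binds the E-box CACGTG, and ETS factors bind a GGAA core, so the RefSeq promoter windows (GRCm38.p6, 250 bases before to 50 after the start) were searched on both strands for CACGTG and GGAAGT. These motifs do not overlap each other. CACGTG was in 7.15% and GGAAGT in 23.8% of 32851 windows in the table, and in at least 1 window of 8.09% and 26.5% of its 27025 genes. Of the 34 ribosome biogenesis genes 28 had a window, and 6 of these (21.4%) held CACGTG and 14 (50%) GGAAGT in at least 1 window. Of the genes tested 78.8% had a window, and shares for the higher, lower and all tested genes are not given. The 27025 genes include genes not tested here, so the shares of the list have no like baseline and no excess is read from them. Of the ribosome biogenesis genes with CACGTG, 3 with the largest rises are printed first, any on 1 chromosome having been passed over. They show where the motif lies beside the start. Bclaf1, the hairpin's target, follows with 3 GGAAGT matches, and then Blnk with 2. Capitals mark both motifs on either strand (GGAAGT reads ACTTCC on the other). The windows are Nop2 at chr6:125131633-125131932 (+), Mybbp1a at chr11:72441077-72441376 (+), Wdr43 at chr17:71615965-71616264 (+), Bclaf1 at chr10:20312219-20312518 (+) and Blnk at chr19:40994172-40994471 (-). A match is a string of letters and says nothing of binding in these cells.
Nop2: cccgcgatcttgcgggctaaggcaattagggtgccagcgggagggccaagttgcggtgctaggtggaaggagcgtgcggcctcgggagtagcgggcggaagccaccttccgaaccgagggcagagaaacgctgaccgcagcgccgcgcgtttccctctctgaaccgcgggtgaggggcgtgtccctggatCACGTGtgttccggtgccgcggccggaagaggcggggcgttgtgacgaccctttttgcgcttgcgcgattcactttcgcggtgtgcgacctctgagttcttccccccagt
Mybbp1a: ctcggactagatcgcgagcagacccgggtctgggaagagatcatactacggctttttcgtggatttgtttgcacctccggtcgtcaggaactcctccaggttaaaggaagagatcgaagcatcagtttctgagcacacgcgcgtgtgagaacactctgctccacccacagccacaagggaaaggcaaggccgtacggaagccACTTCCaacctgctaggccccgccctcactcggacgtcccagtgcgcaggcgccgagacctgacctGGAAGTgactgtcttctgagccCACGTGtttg
Wdr43: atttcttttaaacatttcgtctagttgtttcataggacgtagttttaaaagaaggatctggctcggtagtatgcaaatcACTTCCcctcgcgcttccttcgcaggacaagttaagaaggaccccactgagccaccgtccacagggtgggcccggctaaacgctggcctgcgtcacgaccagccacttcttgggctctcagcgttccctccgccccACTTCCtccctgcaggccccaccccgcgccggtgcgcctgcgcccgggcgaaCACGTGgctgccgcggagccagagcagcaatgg
Bclaf1: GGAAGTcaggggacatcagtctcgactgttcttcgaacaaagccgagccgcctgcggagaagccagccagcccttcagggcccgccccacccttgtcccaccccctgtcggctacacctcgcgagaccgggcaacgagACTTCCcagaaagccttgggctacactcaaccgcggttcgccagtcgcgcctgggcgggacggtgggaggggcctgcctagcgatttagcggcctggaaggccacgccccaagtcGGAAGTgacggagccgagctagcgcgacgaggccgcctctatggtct
Blnk: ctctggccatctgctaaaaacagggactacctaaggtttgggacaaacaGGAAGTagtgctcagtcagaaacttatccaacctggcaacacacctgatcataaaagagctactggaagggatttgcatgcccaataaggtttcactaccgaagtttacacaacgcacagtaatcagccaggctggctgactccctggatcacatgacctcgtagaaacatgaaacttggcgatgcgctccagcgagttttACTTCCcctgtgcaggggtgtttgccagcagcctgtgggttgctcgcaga

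Of 29 measured genes of sterol and fatty-acid synthesis 23 were higher and none lower, with a median of 0.95, and all 29 were ordered replicate 1 above 3 above 2 in Rag_SPIC_DOX. Fasn, fatty-acid synthase, was at 10.10, 10.19 and 10.21 log2 CPM in Rag_SPIC_DOX_shBCLAF1, against 8.79, 8.20 and 8.43 in Rag_SPIC_DOX (1.69, SE 0.15). Scd1 (2.03), Idi1 (2.01), Elovl6 (1.91), Scd2 (1.68) and Fads2 (1.62) also rose, whereas Fdft1 (0.19), Mvd (0.53), Fdps (0.79) and Nsdhl (0.45) did not pass. With 1 library left out, 16 to 29 were higher.

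For one-carbon and amino-acid supply the counts depended on the libraries. In the list of serine, folate and branched-chain metabolism, 11 of 18 were higher and 1 lower (median 1.31). Only 2 or 3 were higher without Rag_SPIC_DOX replicate 3 or without any 1 hairpin-labelled library, and 13 without Rag_SPIC_DOX replicate 1. Mat2a, which makes S-adenosylmethionine, was at 8.86, 8.96 and 8.92 log2 CPM in Rag_SPIC_DOX_shBCLAF1, against 7.49, 6.93 and 7.10 (1.74, SE 0.14). Bcat1, a branched-chain aminotransferase, was at 7.38, 7.46 and 7.44, against 6.47, 3.22 and 5.41 (2.40, SE 0.75). Shmt2 (1.50), Psat1 (1.49) and Phgdh (1.41), enzymes of serine and glycine synthesis, also rose.

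Of 25 genes of polyamine and nucleotide synthesis, 11 were higher and none lower (median 0.76). That count was 4 without Rag_SPIC_DOX replicate 3 or any 1 hairpin-labelled library and 22 without Rag_SPIC_DOX replicate 1. Atic, an enzyme of purine synthesis, was at 7.89, 7.92 and 7.99 log2 CPM, against 7.12, 4.70 and 6.29 in Rag_SPIC_DOX (1.89, SE 0.56). Cad, which starts pyrimidine synthesis, rose by 1.24 (SE 0.33). Of 26 genes of amino-acid stress and transport, 14 were higher and 1 lower (median 0.50), and 5 or 6 were higher without Rag_SPIC_DOX replicate 3 or any 1 hairpin-labelled library. Besides Slc1a5 these were led by Asns, asparagine synthetase (1.51, SE 0.34), and by the transporters Slc7a1 (1.42) and Slc7a5 (1.42).

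**Figure D3:**
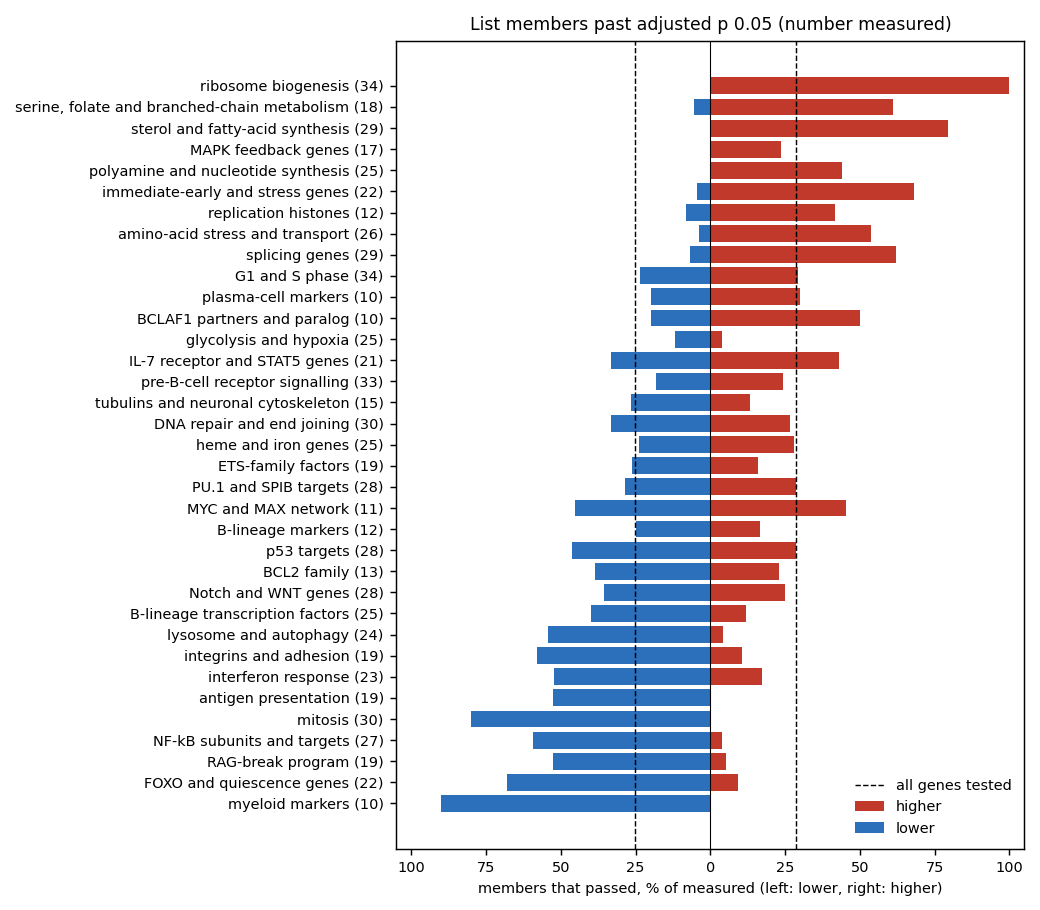
Share of the measured members of each gene list with at least 10 measured genes that passed an adjusted p of 0.05, lower to the left and higher to the right, ordered by the median log2 fold change. Dashed lines give the shares over all genes, 25.1% and 28.5%. Ribosome biogenesis reaches 100% higher, and myeloid markers reach 90% lower.

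Of 22 immediate-early and stress genes 15 were higher and 1 lower (median 0.63). Fosb, an AP-1 subunit, had 437, 459 and 534 reads in Rag_SPIC_DOX_shBCLAF1, against 17, 12 and 12 in Rag_SPIC_DOX (log2 fold change 4.91, SE 0.16, adjusted p = 5.3e-05). Fos, its close relative, had 273, 271 and 284 reads, against 16, 10 and 15 (4.14, SE 0.21). Egr1, a zinc-finger factor induced by ERK signalling, was at 6.43, 6.31 and 6.50 log2 CPM, against 5.17, 3.49 and 4.47 (2.03, SE 0.39). Btg2, an antiproliferative gene, was the 1 that fell (-1.47, SE 0.15). Jun (0.33), Ier5 (0.07) and Nr4a1 (-0.07) did not pass.

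The feedback genes of MAP kinase signalling show how far 1 library carries a count. Of 17, 4 were higher (23.5%, beside 28.5% of all genes) and none lower. These were Egr1, Dusp6 (1.76, SE 0.58), Dusp5 (1.50, SE 0.24) and Spry1 (0.75, SE 0.07), the last 3 being inhibitors of the pathway. Without Rag_SPIC_DOX replicate 1, 12 were higher. Their median from the Rag_SPIC_noDOX mean was 0.99, 0.98 and 1.0 in Rag_SPIC_DOX_shBCLAF1, against 1.08, -0.83 and 0.25 in Rag_SPIC_DOX, so replicate 1 reached the hairpin-labelled level and replicate 2 lay below the uninduced cells.

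Genes of the interleukin-7 receptor and STAT5 divided. Of 21, 9 were higher and 7 lower (median 0.09). The feedback inhibitors rose: Cish was at 6.67, 6.78 and 6.80 log2 CPM in Rag_SPIC_DOX_shBCLAF1, against 5.75, 4.45 and 5.23 in Rag_SPIC_DOX (1.61, SE 0.30), Socs3 by 2.0, Socs1 by 1.33 and Socs2 by 1.27. So did Ccnd3, the cyclin D3 gene, at 10.08, 10.15 and 10.17, against 9.06, 8.16 and 8.66 (1.50, SE 0.21). The receptor chain Il7r was at 9.19, 9.14 and 9.17, against 10.04, 10.68 and 10.42, and fell by 1.21 (SE 0.16). Il2ra (-0.92) and the survival gene Bcl2 (-0.93) also fell.

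Of 11 genes of the MYC and MAX network 5 were higher and 5 lower (median -0.11). Mycn, a relative of Myc, was at 7.07, 7.10 and 7.08 log2 CPM in Rag_SPIC_DOX_shBCLAF1, against 5.95, 4.08 and 5.18 in Rag_SPIC_DOX (2.01, SE 0.43). The MAX-binding repressors Mxd1 (-1.26, SE 0.12), Mxi1 (-0.92), Mxd3 (-0.91) and Mxd4 (-0.79) fell, as did Mlxip (-0.81). Mnt, a further MAX-binding repressor, did not pass (-0.11). Without Rag_SPIC_DOX replicate 3 or any 1 hairpin-labelled library, 2 or 3 were higher, and all 6 such fits had 5 or 6 lower.

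Of 30 mitosis genes none was higher and 24 were lower, where 25.1% of all genes were lower, with a median of -0.48. Ccnb2, a mitotic cyclin, was at 6.50, 6.49 and 6.48 log2 CPM in Rag_SPIC_DOX_shBCLAF1, against 7.42, 7.57 and 7.53 in Rag_SPIC_DOX and a mean of 7.48 in Rag_SPIC_noDOX (-1.01, SE 0.06, adjusted p = 0.00017). Nusap1 (-0.94), Cdc25b (-0.87), Cenpa (-0.82) and Foxm1 (-0.79), the last a transcription factor of mitotic genes, also fell, whereas Aurkb (-0.16), Cdc20 (-0.05), Cdca8 (-0.20) and Birc5 (0.06) did not pass. Unlike the growth lists, this one varied little within Rag_SPIC_DOX, at -0.09, -0.14 and -0.06 from the Rag_SPIC_noDOX mean, against -0.66, -0.61 and -0.55 in Rag_SPIC_DOX_shBCLAF1. With 1 library left out 19 to 26 were lower, and with all 15 libraries in 1 fit 16.

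Genes of the G1 and S phases went both ways, with 10 of 34 higher and 8 lower (median 0.39), close to the shares over all genes. Pcna, the sliding clamp of DNA replication, rose by 1.06 (SE 0.24), Cdk4, the cyclin D kinase, by 0.83 (SE 0.12) and Mcm2, a subunit of the replicative helicase, by 0.96 (SE 0.33). Cdkn2a, which encodes cell-cycle inhibitors, was at 4.46, 4.51 and 4.16 log2 CPM in Rag_SPIC_DOX_shBCLAF1, against 5.91, 5.64 and 5.72, and fell by 1.38 (SE 0.12). Without Rag_SPIC_DOX replicate 1, 23 were higher, and without Rag_SPIC_DOX replicate 3 or any 1 hairpin-labelled library 5 were.

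FOXO and quiescence genes, which rise when growth signals are withdrawn, were mostly lower: 15 of 22 fell and 2 rose (median -0.68). Btg2, Kdm5b (-1.38), Ccng2 (-1.04), Bcl6 (-0.97), Foxo4 (-0.93) and Btg1 (-0.79) were among them. Ccng2, an atypical cyclin that slows the cycle, was at 7.13, 7.02 and 6.93 log2 CPM in Rag_SPIC_DOX_shBCLAF1, against 7.86, 8.25 and 8.07. Of 28 p53 targets 8 were higher (28.6%) and 13 lower (46.4%), with a median of -0.13. Over all genes 28.5% were higher and 25.1% lower. Plk3, a stress-activated kinase, rose by 3.28 (SE 0.37), while Gadd45a (-1.49, SE 0.15) and Phlda3 (-1.11, SE 0.14) fell. Only 4 were higher without Rag_SPIC_DOX_shBCLAF1 replicate 2 or 3. In the BCL2 family 3 of 13 were higher (23.1%) and 5 lower (38.5%). Bmf (-0.82), Pmaip1 (-0.55) and Bbc3 (-0.38), which promote cell death, fell, as did the survival genes Bcl2 (-0.93) and Bcl2l2 (-0.26). Bax, which promotes death, rose by 0.39, and Bcl2l1, which opposes it, by 0.23, but neither passed after median centring (adjusted p = 0.0528 and 0.302). Without any 1 hairpin-labelled library 3 were lower and 1 higher.

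**Figure D4:**
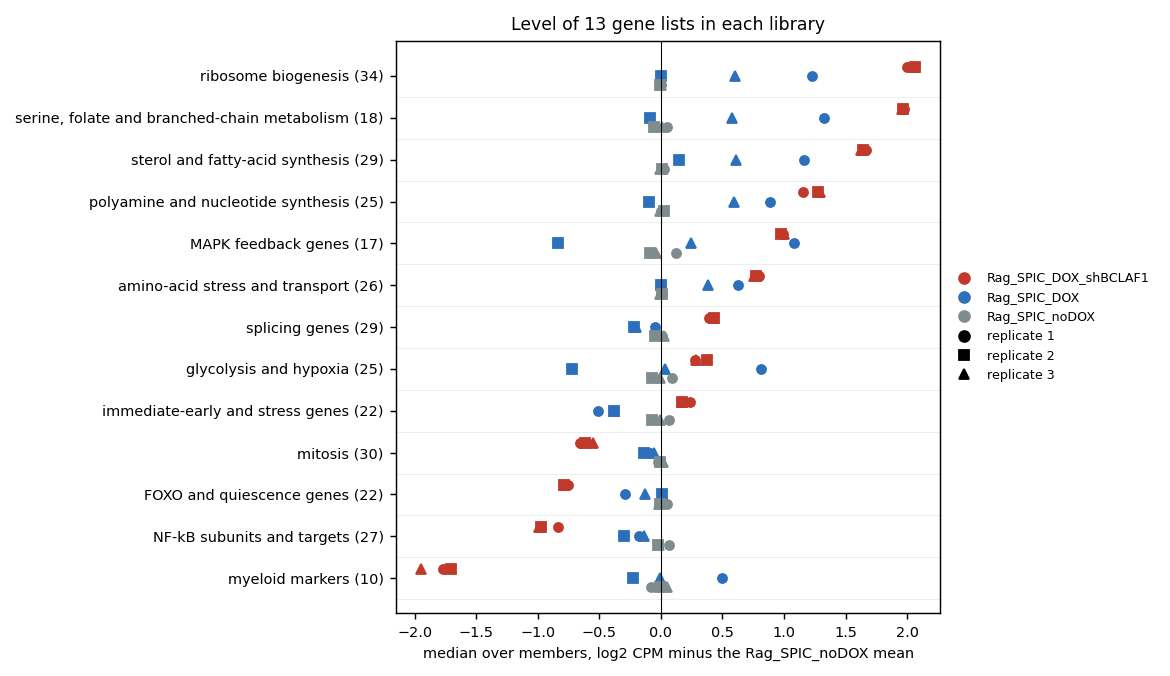
Median over the members of 13 gene lists in each Rag_SPIC library, as log2 CPM minus the mean of the Rag_SPIC_noDOX libraries (horizontal axis, 0 marked). For ribosome biogenesis the hairpin-labelled libraries sit at 2.0 to 2.07 and Rag_SPIC_DOX at 0.00 to 1.23. For mitosis, NF-kB genes and myeloid markers all 3 hairpin-labelled libraries lie below all Rag_SPIC_DOX libraries.

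Of 27 NF-kB subunits and targets 16 fell and 1 rose (median -0.52). Relb, a subunit of the alternative pathway, was at 5.34, 5.31 and 5.23 log2 CPM in Rag_SPIC_DOX_shBCLAF1, against 6.60, 6.94 and 6.88 in Rag_SPIC_DOX (-1.52, SE 0.10). Nfkbie, an inhibitor that NF-kB itself induces, was at 6.04, 5.81 and 5.79, against 7.06, 7.55 and 7.42 (-1.47, SE 0.14). Ebi3, a cytokine subunit, had 8, 9 and 9 reads, against 187, 115 and 165 (-4.24, SE 0.22). The chemokine Ccl4 had 1, 1 and 0 reads, against 97, 7 and 52. Relt, a receptor of the TNF family, was the 1 that rose (2.20, SE 0.69), but it did not pass without Rag_SPIC_DOX replicate 3 or any 1 hairpin-labelled library (adjusted p between 0.0835 and 0.0918). Rel (0.01) and Irf1 (-0.24) did not pass either.

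The RAG-break program, genes known to respond to RAG breaks in pre-B cells, was lower too, in cells that by their label make no such breaks. Of 19, 10 fell and 1, Spic, rose (median -0.58). Cd44, an adhesion receptor, was at 1.04, 1.24 and 1.32 log2 CPM in Rag_SPIC_DOX_shBCLAF1, against 3.71, 3.99 and 3.93 (-2.68, SE 0.14). Gadd45a, Il7r and Cd80 (-1.06) fell, whereas Mcl1 (0.03), Hivep3 (0.31), Cd69 (0.10) and Pim2 (0.09) did not pass. This list shares Spic, Il7r, Gadd45a and chemokine genes with other lists given here.

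Of 23 interferon-response genes 12 were lower and 4 higher (median -0.42). Irf7, a regulator of interferon genes, was at 1.92, 1.58 and 1.30 log2 CPM in Rag_SPIC_DOX_shBCLAF1, against 2.62, 3.07 and 2.64 (-1.18, SE 0.21), while the GTPase genes Gbp7 (1.48) and Gbp4 (1.27) rose. Only 2 were higher without Rag_SPIC_DOX replicate 3 or any 1 hairpin-labelled library. Of 19 antigen-presentation genes 10 were lower and none higher (median -0.47). The class II gene H2-Aa was at 1.44, 1.63 and 2.01, against 6.16, 4.03 and 5.43 (-3.51, SE 0.51), and the class I gene H2-K1 at 10.84, 10.69 and 10.64, against 11.47, 11.95 and 11.69 (-0.98, SE 0.15). Histocompatibility genes have near-identical relatives among which reads may be split, so their values are uncertain. The count of lower genes was 14 without Rag_SPIC_DOX replicate 2 and 5 or 6 without Rag_SPIC_DOX replicate 3 or any 1 hairpin-labelled library.

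Among 19 integrins and adhesion genes 11 were lower and 2 higher (median -0.39), and 7 were lower without any 1 hairpin-labelled library. Itgb5 was at 0.97, 1.04 and 1.11 log2 CPM in Rag_SPIC_DOX_shBCLAF1, against 3.78, 4.57 and 4.31 (-3.18, SE 0.21), and Itgax, a chain of myeloid and dendritic cells, fell by 1.87 (SE 0.36). Epha2, an ephrin receptor, rose by 1.13 (SE 0.11).

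Markers of myeloid cells moved with these groups. Of 10 measured, 9 were lower and Cd68 did not pass (-0.51, SE 0.50), with a median of -2.37. Their summed level was 71.5 to 77.5 CPM in Rag_SPIC_DOX_shBCLAF1, against 260 to 327 CPM in Rag_SPIC_DOX and 352 to 364 CPM in Rag_SPIC_noDOX. Most of the sum in Rag_SPIC_DOX and Rag_SPIC_noDOX came from 1 gene, Itgam, already described among the widest gaps. Itgam was at 5.16, 5.06 and 5.03 log2 CPM in Rag_SPIC_DOX_shBCLAF1, against 7.19, 7.92 and 7.65 in Rag_SPIC_DOX. The sum therefore mainly follows that gene. Csf1r, the receptor of macrophage growth factor, had 9, 14 and 9 reads, against 158, 54 and 116, and Lyz2, lysozyme, was at 0.97, 1.10 and 1.09 log2 CPM, against 3.93, 3.81 and 3.39 (-2.65, SE 0.17). Adgre1, the F4/80 antigen, had 3, 2 and 2 reads, against 49, 58 and 64, and Cd14, a receptor for bacterial lipopolysaccharide, had 1, 1 and 0 reads, against 69, 4 and 38. In bulk RNA fewer cells of a type and less RNA per cell cannot be told apart. The part of such cells in the falls of NF-kB, antigen-presentation and adhesion genes was not tested.

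T-cell and NK markers, 9 measured, had 3 higher and 4 lower, with a summed level of 175 to 180 CPM in Rag_SPIC_DOX_shBCLAF1 and 142 to 208 CPM in Rag_SPIC_DOX. Plasma-cell markers, 10 measured, had 3 higher and 2 lower, with 1039 to 1089 CPM, against 830 to 958 CPM. None of 3 erythroid and megakaryocyte markers passed, and the single fibroblast marker measured, Thy1, which T cells share, fell by 1.15. B-lineage markers had 2 higher (16.7%) and 3 lower (25%) of 12, with 7874 to 8186 CPM, against 7944 to 11181 CPM. The shares over all genes were 28.5% higher and 25.1% lower.

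The genes that PU.1 and SPI-B are known to switch on did not move as 1 group. Of 28, 8 were higher and 8 lower (28.6% each, median -0.07), beside 28.5% and 25.1% over all genes. Fcrla, an Fc receptor-like protein of B cells, was at 5.76, 5.66 and 5.67 log2 CPM in Rag_SPIC_DOX_shBCLAF1, against 2.03, 2.93 and 2.52 in Rag_SPIC_DOX and a mean of 3.59 in Rag_SPIC_noDOX (3.21, SE 0.22). Coro1a, a regulator of actin in blood cells, rose by 1.25 (SE 0.38), and Grap2, an adaptor of antigen-receptor signalling, by 1.13 (SE 0.18). Those that fell most, Csf1r (-3.37), Lyz2 and Itgam, are targets in myeloid cells and also stand among the myeloid markers. Il7r and Bcl6 fell as well, and Cd79b (-0.20), Mef2c (-0.10) and Bach2 (0.34) did not pass. Without Rag_SPIC_DOX replicate 3 or any 1 hairpin-labelled library 5 were higher.

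Pre-B-cell receptor signalling gave 8 higher and 6 lower of 33 (median 0.07), no more than the shares over all genes. Besides Blk, Pik3cd, the lymphocyte PI3 kinase, was at 10.88, 10.89 and 10.86 log2 CPM in Rag_SPIC_DOX_shBCLAF1, against 9.91, 9.42 and 9.66 (1.21, SE 0.13). Vpreb2, a surrogate light chain whose sequence is close to that of Vpreb1 so that reads may be split, was at 8.89, 8.82 and 8.78, against 7.68, 7.89 and 7.52 (1.13, SE 0.10). Btk, a kinase downstream of Syk, rose by 0.56 (SE 0.05), while Pik3r1, the regulatory subunit of PI3 kinase, fell by 0.67 (SE 0.10). The receptor chain Cd79a (0.23) and Vpreb3 (-0.21) did not pass. Without Rag_SPIC_DOX replicate 3 or any 1 hairpin-labelled library 2 or 3 were lower, and without Rag_SPIC_DOX replicate 1, 10 were.

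Among 25 transcription factors of the B lineage 3 rose and 10 fell (median -0.23). Bcl11a was at 8.72, 8.82 and 8.82 log2 CPM in Rag_SPIC_DOX_shBCLAF1, against 7.71, 7.29 and 7.48 (1.29, SE 0.11), Ikzf3, the gene of Aiolos, at 8.30, 8.33 and 8.34, against 6.97, 7.65 and 7.32 (1.01, SE 0.16), and Pax5, the factor of B-cell identity, rose by 0.39 (adjusted p = 0.014, and 0.097 after median centring). Ebf1, which sets up the B lineage, was at 9.36, 9.41 and 9.46, against 9.93, 10.49 and 10.30 (-0.83, SE 0.14). Tcf4 (-1.02), Lef1 (-0.89), Id3 (-0.89) and Myb (-0.49) fell, and Ikzf1 (-0.03) and Foxo1 (-0.23) did not pass. In 20 of the 25, Rag_SPIC_DOX replicate 2 was above replicate 3 and that above replicate 1, as in 30.2% of all genes. Without Rag_SPIC_DOX replicate 1, 15 were lower, and without Rag_SPIC_DOX replicate 3 or any 1 hairpin-labelled library 5 or 6.

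Of 19 ETS-family factors 3 rose (15.8%), Spic, Spib and Spi1, and 5 fell (26.3%), with a median of -0.07. The shares over all genes were 28.5% higher and 25.1% lower. Ets1, a factor of lymphocytes, was at 8.39, 8.38 and 8.36 log2 CPM in Rag_SPIC_DOX_shBCLAF1, against 8.72, 9.17 and 9.07 (-0.61, SE 0.12). Erf (-0.56), Elk3 (-0.48), Fli1 (-0.38) and Elf2 (-0.28) fell, and Elf1 (-0.23), Elf4 (0.03), Erg (-0.07) and Elk4 (-0.12) did not pass. Elf2 did not pass with all 15 libraries in 1 fit (adjusted p = 0.0856), nor without Rag_SPIC_DOX replicate 3 or any 1 hairpin-labelled library, and Fli1 did not pass in 3 of these 4 fits. Without Rag_SPIC_DOX replicate 1, 5 were higher and 7 lower, and without Rag_SPIC_DOX replicate 3 or Rag_SPIC_DOX_shBCLAF1 replicate 1 or 2, 2 were higher and 3 lower.

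Notch and WNT genes held large changes in both directions. Of 28 (median -0.16), 7 were higher (25%) and 10 lower (35.7%), beside 28.5% and 25.1% over all genes. Axin2, a feedback inhibitor that WNT signalling induces, had 163, 179 and 182 reads in Rag_SPIC_DOX_shBCLAF1, against 10, 12 and 15 in Rag_SPIC_DOX (3.61, SE 0.21). Hey1, a Notch-induced repressor, had 44, 60 and 49 reads, against 2, 7 and 7, and Hes1, of the same family, was at 3.60, 3.38 and 3.31 log2 CPM, against 2.23, 1.47 and 1.69 (1.64, SE 0.21). Dtx1 rose by 2.08 (SE 0.16) while its relative Dtx4 fell by 2.79, and Apc (-0.20), Axin1 (0.05) and Notch2 (-0.13) did not pass. Without Rag_SPIC_DOX replicate 3 or any 1 hairpin-labelled library 5 or 6 were lower.

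BCLAF1 and its relatives act in RNA processing. Genes of splicing were mostly higher, and the part of BCLAF1 in this was not tested. Of 29 (median 0.43), 18 were higher (62.1%) and 2 lower (6.9%), beside 28.5% and 25.1% over all genes. Srsf6, a serine/arginine-rich splicing factor, was at 9.14, 9.16 and 9.17 log2 CPM in Rag_SPIC_DOX_shBCLAF1, against 8.0, 7.62 and 7.70 in Rag_SPIC_DOX and a mean of 7.87 in Rag_SPIC_noDOX (1.38, SE 0.10). Srsf7 (1.18), Tra2a (0.94), Srsf10 (0.75), Srsf3 (0.73) and the kinase gene Srpk1 (0.71) rose, and Sf3b1 (-0.01), Hnrnpk (0.16) and Hnrnpd (0.34) did not pass. With 1 library left out 12 to 20 were higher.

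Of 10 partners and relatives of BCLAF1, 5 were higher and 2 lower (median 0.23). Thrap3, its paralog, was at 7.75, 7.80 and 7.86 log2 CPM, against 7.53, 7.55 and 7.61 (0.24, SE 0.06), and Pnn, a splicing-associated protein, at 8.19, 8.20 and 8.20, against 7.77, 7.53 and 7.67 (0.54, SE 0.07). Snw1, a spliceosome protein, fell by 0.60 (SE 0.08), but did not pass with all 15 libraries in 1 fit (adjusted p = 0.11). Without Rag_SPIC_DOX_shBCLAF1 replicate 2 or 3, 3 were higher. Only 2 were higher after median centring, where Thrap3 did not pass (adjusted p = 0.204).

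Of 30 genes of DNA repair and end joining 8 were higher and 10 lower (median 0.03), near the shares over all genes. Polm, a polymerase of end joining, was at 5.58, 5.51 and 5.59 log2 CPM in Rag_SPIC_DOX_shBCLAF1, against 4.13, 4.50 and 4.18 (1.29, SE 0.11), and Atm, the kinase that senses breaks, rose by 0.55 (SE 0.08). Xrcc4 (-0.87), Mdc1 (-0.71), H2afx (-0.66) and Xrcc6 (-0.55), all part of end joining or the marking of breaks, fell. Without any 1 hairpin-labelled library 5 or 6 were higher and 6 or 7 lower.

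The hairpin label was also compared between the lines, since Art_shBCLAF1 and Art carry no SPIC construct by label. The test was the interaction in limma over 12 libraries, with no sample shared by the 2 differences. It passed for 3621 of 11551 genes (31.3%), and for 6286 (54.4%) without Art replicate 3, a library of 5.81 M reads. Of the 31 named genes 16 passed, and 19 without Art replicate 3. As 23 of them were chosen for their change in Rag cells, these counts are a description.

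Bclaf1 was higher with the hairpin label in both lines. It was at 8.29, 8.35 and 8.32 log2 CPM in Art_shBCLAF1, against 7.81, 7.75 and 6.41 in Art, and the difference between the lines did not pass (-0.68, SE 0.41, adjusted p = 0.229), but did without Art replicate 3 (-0.22, adjusted p = 0.0274). Spic was at 4.47, 4.34 and 4.80 in Art_shBCLAF1, against 0.85, 0.32 and 0.16 in Art, a change of 4.10, against 3.25 in Rag_SPIC_DOX cells (difference -0.85, adjusted p = 0.075). Art cells carry no SPIC construct by label.

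Spib and Slc1a5 moved in opposite directions in the 2 lines. Spib was at 5.91, 6.10 and 5.98 log2 CPM in Art_shBCLAF1, against 7.32, 7.27 and 7.30 in Art, a change of -1.30, against 2.20 in Rag_SPIC_DOX cells (difference 3.50, SE 0.16, adjusted p = 1.35e-06). Slc1a5 was at 7.71, 7.67 and 7.64, against 8.01, 8.03 and 8.27, a change of -0.43, against 1.83 (difference 2.26, SE 0.14, adjusted p = 9.5e-06). Blk changed by 1.01 in Art cells, against 2.68 (difference 1.67, SE 0.17, adjusted p = 0.000102), and Itgam by -5.01, against -2.50 (difference 2.50, SE 0.34, adjusted p = 0.00039). Cdc42bpb, a kinase of the actin cytoskeleton, was at 5.68, 5.76 and 5.61, against 5.87, 5.91 and 5.97, a change of -0.23, against -2.08 (difference -1.85, SE 0.19).

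**Figure D5:**
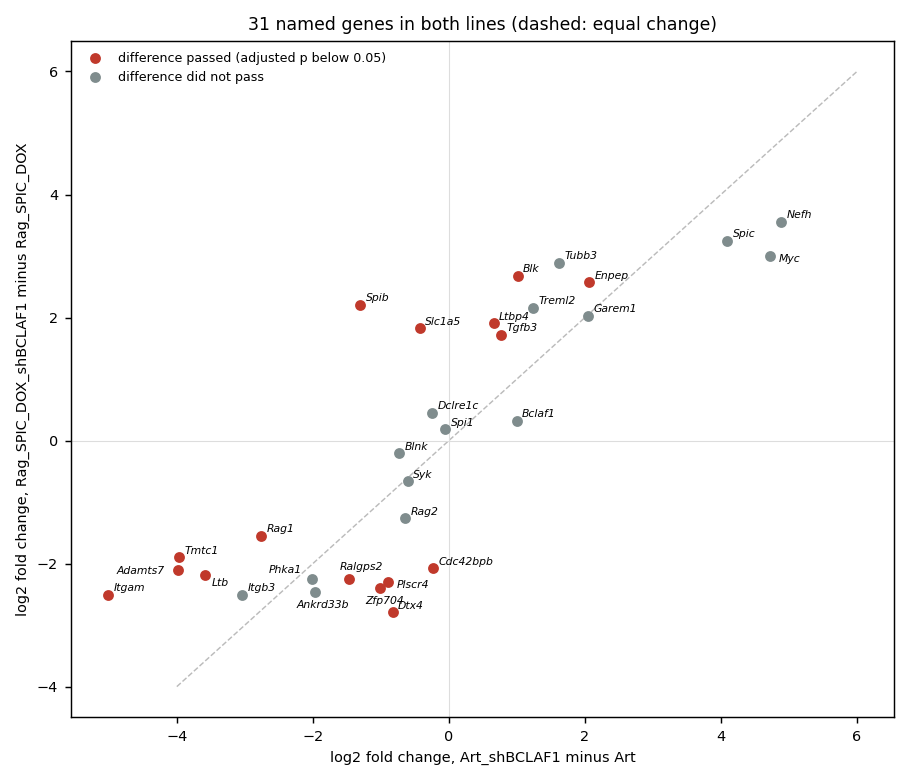
Log2 fold change with the hairpin label of the 31 named genes in Rag_SPIC_DOX cells (vertical axis) and in Art cells (horizontal axis), each point 1 gene. The dashed line marks equal change, and red points passed the test of the difference. Spib and Slc1a5 lie in the upper left, at -1.30 and -0.43 in Art cells.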

How the data were processed

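RNA was sequenced by the submitters as paired ends from TruSeq libraries, per the labels' protocols. Per the submitters' processing notes, mm9, Subread, featureCounts 1.4.5, edgeR and limma were used. The authors deposited log2 CPM (0.5 read added, over effective library sizes), and every value below 1000 reads returned to a whole read count within 0.05. The 4 deposited tables also give the authors' p-values and adjusted p-values, used only to see how genes were chosen (highest 0.0499). Values agreed exactly between tables, 152 duplicate lines were merged, and 1 column name, for Art replicate 3, was matched although 1 character differed.

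limma 3.58.1 (R 4.3.3), with a mean-variance trend, was fitted to the 6 libraries; Benjamini-Hochberg adjustment was over 11551 genes, two-sided, threshold 0.05. The interaction used 12 libraries. Fits were also run on simulated data with independent spread for each gene and library. Rag_SPIC_DOX libraries differ in an order that many genes share, so that run is no support for the calls. The 39 lists (814 genes, 712 measured) were written from general knowledge. Members and lists were chosen with earlier results of these data known. Named genes were the 10 label genes, the 12 widest gaps each way among called genes above the median level, and per list up to 8 that passed, by size, and up to 4 that did not, by level; some are left out for brevity or not reported here. Lists were described without set tests. Alternatives were another pooling of groups, a robust prior, median centring, 1 CPM added, a filter at a mean log2 CPM of 1, the comparison's own table, a 1 log2 unit minimum, a replicate block, leaving out each library and, added after seeing the data, voom weights. Promoters are RefSeq windows of GRCm38.p6 and are not the mm9 build of the files, figures were drawn with matplotlib 3.10.9.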

Additional observations from a re-analysis of the deposited data

Results flagged for a closer look

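For 16 of the 31 named genes the hairpin-label effect differed between Rag_SPIC_DOX and Art cells in the limma interaction test over 12 libraries. Over all genes the test passed for 31.3%. Without Art replicate 3 it passed for 19 of the 31 and for 54.4% of all genes. As 23 of the 31 were chosen for their change in Rag cells, these counts are a description. Values are the log2 difference of effects, Rag_SPIC_DOX minus Art cells. It was positive for Spib (3.50), Itgam (2.50), Slc1a5 (2.26), Tmtc1 (2.07), Adamts7 (1.88), Blk (1.67), Ltb (1.4), Ltbp4 (1.25), Rag1 (1.21), Tgfb3 (0.95) and Enpep (0.51). It was negative for Dtx4 (-1.96), Cdc42bpb (-1.85), Plscr4 (-1.41), Zfp704 (-1.38) and Ralgps2 (-0.79). The adjusted p was largest for Rag1 (0.0444) and Ltb (0.0434), and without Art replicate 3 these 2 differences were 1.60 (adjusted p = 0.00025) and 0.95 (adjusted p = 0.0131). Of the genes named above, Itgam, Tmtc1, Adamts7, Ltb and Rag1 fell in both lines and fell further in Art cells, and their Art levels were at 9.79, 9.80 and 9.37 log2 CPM for Itgam and 7.34, 7.39 and 8.74 for Ltb. Groups of 3 libraries are too small for a test of single outlying libraries.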

How the results depend on the processing

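The 6186 changed genes became 1654 (918 higher and 736 lower) with a minimum of 1 log2 unit. With 1 library left out the count was 3945 to 7576, with 1953 to 4170 higher and 1992 to 3406 lower, lowest without Rag_SPIC_DOX_shBCLAF1 replicate 2 and highest without Rag_SPIC_DOX replicate 1; such fits hold fewer samples. Other planned fits gave 4593 to 6393, and voom weights, added after seeing the data, 6223. Median centring of each library lowered all log2 fold changes, whose median was 0.05 before and -0.05 after, and the share of higher genes among changed ones was 45.0% after, against 53.2% before. The interaction passed for 3621 genes and for 6286 without Art replicate 3. Bclaf1, at 0.32, lost its call with 15 libraries in 1 fit (adjusted p = 0.366), while its adjusted p over the other alternatives was 0.0027 to 0.0428, and Spic kept its call in all of them. Of 205 genes named with a log2 fold change, 164 passed. None of these changed sign, and 27 lost their call without at least 1 library (Atic, Bbc3, Bcat1, Bcl2l1, Bcl2l2, Cad, Cd14, Coro1a, Dclre1c, Dusp6, Elf2, Fli1, Mcm2, Myb, Myc, Pax5, Phgdh, Relt, Rrp9, Scd1, Shmt2, Slc7a1, Slc7a5, Socs3, Spi1, Syk and Thrap3). With 15 libraries in 1 fit 10 lost it (Atm, Bbc3, Bclaf1, Dclre1c, Elf2, Snw1, Spi1, Srsf10, Thrap3 and Xrcc4), with median centring Bax, Bcl2l1, Pax5, Spi1 and Thrap3, with the replicate block Bbc3, Bcl2l1, Bcl2l2, Elf2 and Spi1, with the filter Mcm2, with the robust prior Dusp6, Mcm2, Myc and Phgdh, and with voom weights Cd14, Mcm2 and Myc. Of genes that did not pass, 16 changed sign in at least 1 alternative, at adjusted p of 0.0604 or more. With median centring these were Elf4 (-0.075), Rel (-0.088), Pim2 (-0.0099), Mcl1 (-0.069), Ier5 (-0.027), Birc5 (-0.045) and Axin1 (-0.054). With 1 library left out the ranges across 0 were -0.00998 to 0.062 for Elf4, -0.22 to 0.053 for Elk4, -0.23 to 0.0101 for Erg, -0.11 to 0.031 for Ikzf1, -0.058 to 0.11 for Rel, -0.83 to 3.33 for Lta, -0.21 to 0.38 for Pim2, -0.0057 to 0.061 for Mcl1, -0.30 to 0.11 for Nr4a1, -0.16 to 1.59 for Ldha, -0.086 to 0.0072 for Cdc20, -0.024 to 0.0062 for Sf3b1 and -1.07 to 0.0075 for Cd68. Array weights could not be fitted, since their estimation did not converge.

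With a replicate block 5171 genes changed (2800 higher, 2371 lower), and the interaction gave 3395. Without Rag_SPIC_DOX replicate 2 the interaction passed for 4075 genes. The deviations of same-numbered libraries from their group means correlated at -0.05, -0.02 and 0.01. With so few libraries per group, such values cannot show whether same-numbered libraries were handled together. Differences of low genes are limited by depth: 120 to 150 genes had 3 reads or fewer in Rag_SPIC_DOX_shBCLAF1 libraries, against 81 to 145 in Rag_SPIC_DOX libraries.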

Other observations

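Further lists are read beside the shares over all genes, 28.5% higher and 25.1% lower. Of 24 lysosome and autophagy genes 13 were lower and 1 higher in Rag_SPIC_DOX_shBCLAF1, with a median log2 fold change of -0.30. Hexa, a lysosomal enzyme, had 23, 20 and 21 reads, against 94, 168 and 103 in Rag_SPIC_DOX (-2.61, SE 0.27), and Wipi1, an autophagy protein, was at 2.18, 1.69 and 2.13 log2 CPM, against 4.03, 3.90 and 3.96 (-1.97, SE 0.16). Sqstm1, the autophagy receptor p62, fell by 0.60 and Tfe3, a factor of lysosomal genes, by 0.75. Of 25 heme and iron genes 7 were higher and 6 lower, close to the shares over all genes. Tfrc, the transferrin receptor, was at 8.10, 8.23 and 8.20 log2 CPM, against 7.44, 6.20 and 6.66 (1.41, SE 0.29), and Slc25a37, the mitochondrial iron importer, at 7.35, 7.41 and 7.42, against 6.28, 6.21 and 6.07 (1.21, SE 0.07). Of 12 replication histones, whose near-identical copies make values uncertain, 5 were higher and 1 lower. Of 15 tubulin and neuronal cytoskeleton genes 2 were higher and 4 lower, no more than about the shares over all genes, and 6 were higher without Rag_SPIC_DOX replicate 1. Tubb5, a beta tubulin, did not pass (-0.16).

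Glycolysis and hypoxia genes varied widely within Rag_SPIC_DOX. Only Vegfa, a growth factor of blood vessels, rose (2.02, SE 0.30) and 3 of 25 were lower, with 5 higher without Rag_SPIC_DOX replicate 1 and 6 lower without replicate 2. Of the 25, 23 had Rag_SPIC_DOX replicate 1 above replicate 3 above replicate 2. Ldha, lactate dehydrogenase, was at 9.41, 9.41 and 9.38 log2 CPM in Rag_SPIC_DOX_shBCLAF1, against 10.08, 6.59 and 9.03 in Rag_SPIC_DOX (0.83, SE 0.81, adjusted p = 0.41). The 10 genes of above-median level with the largest standard deviation in Rag_SPIC_DOX, a rule chosen after their values were seen, were Lta, Tmem119, Cdh17, Srm, Myc, Ldha, Ccnd2, Nefh, Eno1 and Hk2. Lta, the cytokine lymphotoxin alpha, was at 7.28, 7.36 and 7.47 in Rag_SPIC_DOX_shBCLAF1, against 8.83, 0.51 and 7.57 in Rag_SPIC_DOX and a mean of 1.4 in Rag_SPIC_noDOX. Srm, spermidine synthase, was at 8.02, 8.09 and 8.10, against 6.91, 1.77 and 5.71 (3.27, SE 1.21, adjusted p = 0.0585), and Ccnd2, the cyclin D2 gene, at 8.37, 8.51 and 8.54, against 7.91, 4.45 and 6.77 (2.10, SE 0.80, adjusted p = 0.0627). In each of these, Rag_SPIC_DOX replicate 2 was the lowest of the 6 libraries.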
